A study of Mus musculus with 27 samples.

Results

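The activin and BMP signalling genes described here are 10 genes measured in hepatic stellate cells (HSCs), liver mesenchymal cells that store retinoid, out of 53379 genes in the count table. They were listed by name and by their place in the pathway, with earlier results of these data known: the activin subunit genes Inhba and Inhbb, the ligand gene Bmp4, the secreted antagonist genes Fst and Fstl3, the pseudoreceptor gene Bambi, the inhibitory Smad genes Smad6 and Smad7, and the BMP target genes Id1 and Id3. All 10 passed the filter on low counts. HSCs of male Balb/c mice were sorted by ultraviolet fluorescence directly after liver perfusion and were not cultured. Healthy mice were 10 to 12 weeks old and received nothing (n = 4), so there was no group given mineral oil alone. Acute mice were 10 to 12 weeks old and received 1 intraperitoneal injection of carbon tetrachloride (CCl4), a hepatocyte toxin, in mineral oil at 0.5 µL per gram, and their livers were taken at 24 h in 3 experiments, at 72 h in 4 and at 7 d in 4. Chronic mice were injected from an age of 8 to 10 weeks and received the same dose semi-weekly for 4 weeks. Collection was 24 h, 72 h or 14 d after the course (n = 4 each), when the mice were older than at its start. Their age at collection is not stated, and age and course cannot be told apart in the chronic comparisons. Each library came from an individual experiment, according to the methods of the study.

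Activins are dimers of the inhibin beta subunits and act through type I and type II serine/threonine kinase receptors on Smad2 and Smad3, whereas BMPs act mainly through Smad1, Smad5 and Smad9. Follistatin and follistatin-like 3 bind activins outside the cell, BAMBI resembles a type I receptor without a kinase, and Smad6 and Smad7 restrain the pathway inside the cell. Id1 and Id3, which encode inhibitors of basic helix-loop-helix factors, are classical target genes of BMP signalling, and in the liver activin A and the BMPs are known for roles in fibrosis, regeneration and iron control.

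The promoters of 4 of these genes are shown because 3 of them (Inhba, Inhbb and Fstl3) were higher together 24 h after 1 injection and the fourth (Bmp4) was lower in the same libraries. Each sequence holds the 250 bases before the RefSeq start on the GRCm38.p6 build, written 5′ to 3′ on the strand of the gene, with capitals at a match to 1 of 4 motifs.
Inhba, chr13:16011601-16011850 (+ strand): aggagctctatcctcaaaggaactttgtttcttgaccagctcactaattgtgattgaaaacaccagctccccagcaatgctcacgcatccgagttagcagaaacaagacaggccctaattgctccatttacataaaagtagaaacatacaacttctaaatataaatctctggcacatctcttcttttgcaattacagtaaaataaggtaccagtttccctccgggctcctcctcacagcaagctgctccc
Inhbb, chr1:119422249-119422498 (- strand): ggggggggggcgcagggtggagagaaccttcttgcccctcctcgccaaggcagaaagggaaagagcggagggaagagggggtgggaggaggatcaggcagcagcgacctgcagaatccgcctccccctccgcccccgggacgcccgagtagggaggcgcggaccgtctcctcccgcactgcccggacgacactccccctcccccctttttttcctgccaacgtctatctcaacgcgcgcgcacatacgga
Fstl3, chr10:79777024-79777273 (+ strand): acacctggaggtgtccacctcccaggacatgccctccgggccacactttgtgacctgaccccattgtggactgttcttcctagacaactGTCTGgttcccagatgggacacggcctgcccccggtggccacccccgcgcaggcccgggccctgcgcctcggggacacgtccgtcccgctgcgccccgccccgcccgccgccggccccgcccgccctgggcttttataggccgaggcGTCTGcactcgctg
Bmp4, chr14:46390670-46390919 (- strand): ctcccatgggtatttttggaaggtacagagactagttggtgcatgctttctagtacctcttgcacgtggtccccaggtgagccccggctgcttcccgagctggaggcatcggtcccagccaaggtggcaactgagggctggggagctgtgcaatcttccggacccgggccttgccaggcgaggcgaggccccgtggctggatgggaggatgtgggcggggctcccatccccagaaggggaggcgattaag
The motifs searched on both strands were the Smad box CAGAC, the GC-rich Smad site GGCGCC, the AP-1 site TGANTCA and the TEAD site GGAATG. The Fstl3 window held 2 Smad boxes, both on the other strand and so written as GTCTG, which did not overlap. The windows of Inhba, Inhbb and Bmp4 held none of the 4 motifs. Windows of Id3 and Smad6 were also searched but are not printed. That of Id3 held 2 Smad boxes and 1 TEAD site, and that of Smad6 held none of the 4 motifs. Of 32841 promoters of the same length, 42.2% held a Smad box, 9.59% the GC-rich site, 6.75% the AP-1 site and 12.6% the TEAD site. These matches describe the letters of the windows and nothing more.

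Library totals ranged from 6.31 M to 13.1 M counts, and 8 libraries were of lower depth (7.58 M or less, against 10.8 M or more in the others): the first 2 replicates of both chronic 24 h and chronic 72 h, and the 4 chronic 14 d libraries. The levels below are counts per 1 M counts of a library (CPM) with TMM-scaled library sizes, and the tests are those of 1 edgeR quasi-likelihood model of all 27 libraries. Calls required a change above 2-fold and a p below 0.05 after Benjamini-Hochberg adjustment over 18758 genes. All 13 HSC markers, among them Lrat, Des and Reln, had counts in every library, and their summed level lay between 23595 and 37212 CPM in healthy, between 18301 and 27633 CPM in acute 24 h (6 of the 13 lower) and between 14033 and 16120 CPM in chronic 24 h libraries (8 of the 13 lower and 1 higher), the last wholly below healthy. Acute 72 h (14640 to 18341 CPM), acute 7 d (17366 to 20700 CPM) and chronic 72 h libraries (20408 to 21986 CPM) also lay wholly below healthy. Markers of other cells moved with the groups. The summed level of 10 hepatocyte markers was 619.7 to 4204 CPM in healthy and 148 to 337 CPM in acute 24 h libraries, where 9 of the 10 were lower. That of 12 macrophage markers was 188 to 760.4 CPM in healthy, 181 to 261 CPM in acute 24 h and 697 to 4293 CPM in chronic 24 h libraries, where 9 of the 12 were higher. It reached 4443 to 11623 CPM in acute 7 d libraries, with 11 of the 12 higher. That of 12 sinusoidal endothelial markers was 223 to 730.4 CPM in healthy and 220.3 to 280.1 CPM in acute 24 h libraries, with 7 of the 12 lower and 1 higher, and 61.2 to 219.9 CPM in acute 72 h libraries, with 10 of the 12 lower. At most 1 marker of each of these 3 lists was at 0 in any library. In bulk samples, fewer cells of a type and less RNA per cell cannot be told apart, and the part of other cells in the results was not tested.

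The number of the 10 genes called was highest 24 h after 1 injection. In acute 24 h against healthy 7 were called, 5 higher (Inhba, Inhbb, Fstl3, Id1, Id3) and 2 lower (Bmp4, Bambi), where 22% of all genes tested were called. The median log2 fold change of the 10 was 1.56, against -0.12 over all genes tested. In acute 72 h against healthy 4 were called, with Fstl3 and Smad6 higher and Inhba and Bmp4 lower, at a background of 12.6%. In acute 7 d 3 were called (Fstl3 higher, Inhba and Bmp4 lower) at a background of 14.9%.

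After the chronic course the counts were lower. In chronic 24 h against healthy 3 were called, namely Fstl3 (higher), Bmp4 and Bambi (lower), at a background of 19.3% and with a median log2 fold change of 0.42 against -0.03 over all genes. In chronic 72 h against healthy 2 were called (Fstl3 higher, Bmp4 lower), where 12.1% of all genes were called. In chronic 14 d against healthy edgeR and DESeq2 each called 0 at a background of 5.72%, and 2 of the 10 (Bmp4 and Id3) had an unadjusted p below 0.05. The share of all genes with an unadjusted p below 0.05 is not given. The 6 comparisons with healthy share the same 4 control libraries. Fstl3 and Bmp4 were each called in 5 of these 6 comparisons, Inhba in 3, Bambi in 2, Inhbb, Smad6, Id1 and Id3 in 1, and Fst and Smad7 in 0.

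**Figure D1:**
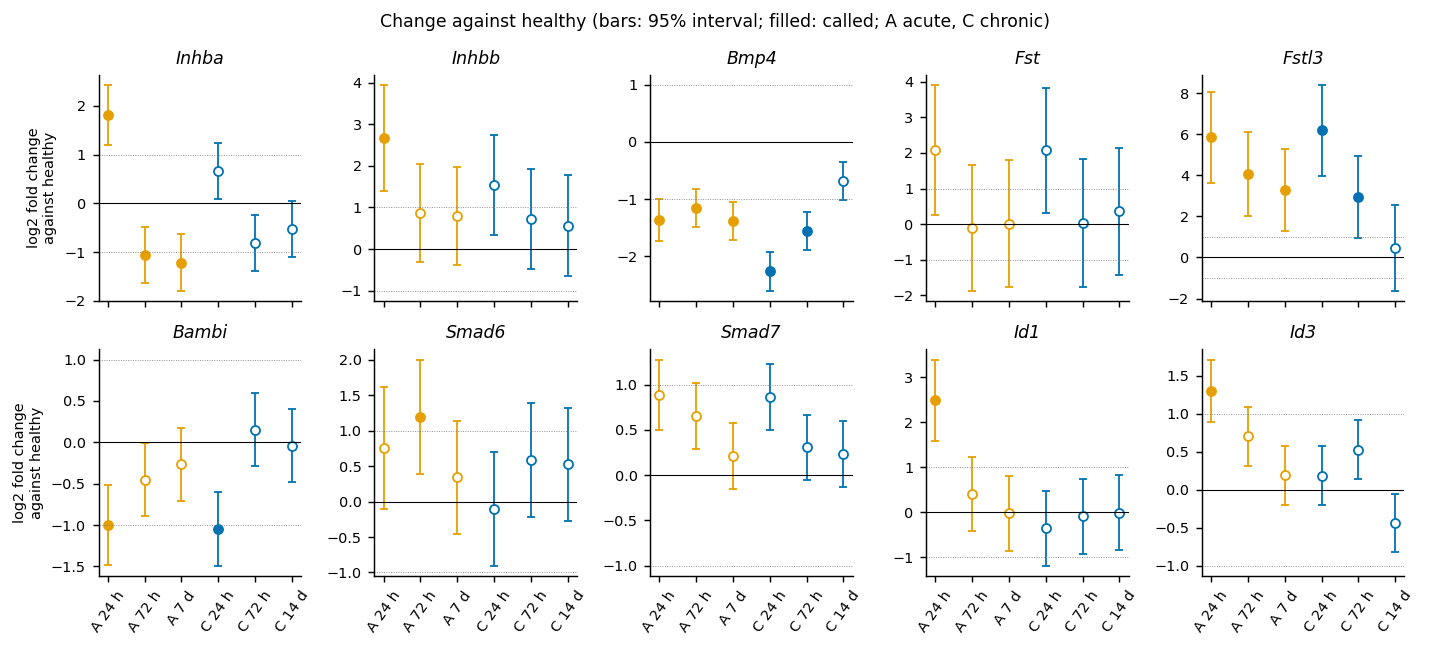
Log2 fold change of each gene against healthy in the 3 acute (A, orange) and 3 chronic (C, blue) groups. Bars are 95% intervals, a normal approximation from the SE. Filled points were called and dotted lines mark a 2-fold change. Fstl3 was called higher and Bmp4 called lower in every group except chronic 14 d, whereas Id1, Id3 and Inhbb were called in acute 24 h alone.

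The direct comparisons between injured groups followed the same genes. Chronic 24 h against acute 24 h asked how repeated injury differed from a first injury at the same interval, and 3 genes were called, all lower in chronic 24 h (Inhba, Id1 and Id3; background 13.9%). Between acute 24 h and acute 72 h 3 genes were called, all lower at 72 h (Inhba, Inhbb and Id1; background 15%). Between chronic 24 h and chronic 72 h Bambi was higher and Inhba and Fstl3 were lower at 72 h (background 8.37%), and between chronic 24 h and chronic 14 d Bmp4 and Bambi were higher and Inhba and Fstl3 were lower at 14 d (background 12.8%). The change from 24 h to 72 h differed between the chronic and the acute course for 2 genes, Inhba and Id1 (background 8.74%).

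Inhba (ENSMUSG00000041324, chr13:16011851-16031621) encodes the inhibin beta A subunit, 2 copies of which form activin A. It stood at 101, 74.9, 64.8 and 63.3 CPM in the healthy libraries and at 280.1, 199.9 and 324 CPM in the acute 24 h libraries. All 3 acute 24 h libraries lay above every healthy library, and the log2 fold change was 1.82, with an SE of 0.31 and an adjusted p of 9.83e-05 (3.52-fold). After 72 h the level had dropped to 41.3, 48.1, 29.2 and 27.6 CPM, and after 7 d it was 28.6, 28.2, 35.3 and 39.0 CPM. Both later acute groups thus lay below every healthy library, by log2 fold changes of -1.06 ± 0.29 (adjusted p 0.0117) and -1.22 ± 0.30 (adjusted p 0.00429). The 72 h call was lost without healthy replicate 1 (-0.89), acute 72 h replicate 3 (-0.97) or acute 72 h replicate 4 (-0.94), each time for the size of the change, and with library size alone as the scaling (-0.96). From 24 h to 72 h Inhba fell by 2.87 on the log2 scale in the acute course (SE 0.32, adjusted p 1.34e-06).

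In the chronic 24 h libraries Inhba was uneven, at 44.4, 107, 174 and 153 CPM. Replicate 1, of lower depth, lay below all healthy libraries, and the other 3 lay above them. The log2 fold change against healthy was 0.66 ± 0.29 and was not called (adjusted p 0.0924), but it was called in the libraries of higher depth alone, which keep replicates 3 and 4 (1.12, adjusted p 0.0048). Inhba was lower in chronic 24 h than in acute 24 h by a log2 fold change of -1.16 ± 0.31 (adjusted p 0.00933). This call was lost without chronic 24 h replicate 1 (-0.89) or acute 24 h replicate 3 (-1.0, adjusted p 0.0507). It was also lost in a fit of only the groups compared (adjusted p 0.0806) and with depth class as a term (-0.999). The libraries of higher depth alone did not give the call either (-0.74, adjusted p 0.0974). Chronic 72 h libraries stood at 44.3, 48.7, 32.8 and 47.9 CPM, lower than chronic 24 h by a log2 fold change of -1.47 ± 0.30 (adjusted p 0.00144), and chronic 14 d libraries at 51.0, 70.5, 39.3 and 50.7 CPM, lower by -1.18 ± 0.30 (adjusted p 0.00545). All chronic 72 h libraries also lay below every healthy library, but that change was not called (log2 fold change -0.81 ± 0.29, adjusted p 0.0538). Replicate 1 of chronic 24 h overlapped both chronic 72 h and chronic 14 d. The 14 d call was lost without chronic 24 h replicate 3 (-0.95) or replicate 4 (-0.98), in a fit of only the groups compared (-1.10, adjusted p 0.0703) and with depth class as a term (-0.89, adjusted p 0.0687) (the chronic 14 d group holds lower-depth libraries alone).

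The drop of Inhba from 24 h to 72 h was larger in the acute than in the chronic course, by 1.41 ± 0.43 on the log2 scale (adjusted p 0.0356). This difference was close to the threshold, since it was not called without any 1 of 7 libraries (acute 24 h replicate 1 or 3, acute 72 h replicate 3 or 4, chronic 24 h replicate 2, chronic 72 h replicate 1 or 4), where it ranged from 1.25 to 1.41 with adjusted p from 0.0544 to 0.0931. Nor was it called with only the groups compared (adjusted p 0.0795) or in the libraries of higher depth alone (0.93, adjusted p 0.182). In ascending order of group means, Inhba ran from acute 7 d through acute 72 h, chronic 72 h, chronic 14 d, healthy and chronic 24 h to acute 24 h, and the last step, from chronic 24 h to acute 24 h, was the only call between its neighbours. Over all 10 genes, 2 of 60 such pairs of neighbouring groups were called. Neighbours are by construction the groups closest in mean. The share of all genes called is not given for each of these pairs, so this count has no background. The 2 genes whose changes against healthy were most like those of Inhba, among 10292 genes whose mean log2 CPM was 3 or more, were Rbm42 and Ebna1bp2, with root mean square differences of 0.33 and 0.34 over the 6 log2 fold changes.

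Inhbb (ENSMUSG00000037035, chr1:119415465-119422248), the gene of the inhibin beta B subunit found in activin B, was scarce in healthy HSCs. Per kilobase of exon, its healthy level was 0.588 ± 0.357 CPM (SD, n = 4) against 11.9 ± 2.76 CPM for Inhba. It stood at 0.725, 1.76, 3.62 and 3.90 CPM in healthy and at 17.3, 19.9 and 11.1 CPM in acute 24 h libraries, which did not overlap. The log2 fold change was 2.67 ± 0.65 (adjusted p 0.00251). At 72 h the acute libraries had returned to 8.86, 5.80, 1.63 and 2.09 CPM, lower than at 24 h by a log2 fold change of -1.81 ± 0.63 (adjusted p 0.04). That call was lost without acute 24 h replicate 1 (-1.75) or 2 (-1.63) or acute 72 h replicate 3 (-1.59) or 4 (-1.62), with adjusted p from 0.0962 to 0.124, and also with library size alone, with no filter and with only the groups compared (adjusted p 0.0524, 0.0584 and 0.053). Chronic 24 h libraries were spread from 2.63 to 14.6 CPM (5.55, 14.6, 2.63 and 6.72), and their log2 fold change of 1.54 ± 0.61 against healthy was not called (adjusted p 0.058). It was called without healthy replicate 4 or without chronic 24 h replicate 3, at 1.83 in both cases, and DESeq2 called it with all libraries (1.52, adjusted p 0.0423). The other 3 groups (acute 7 d, chronic 72 h and chronic 14 d) lay between 1.32 and 7.97 CPM and overlapped the healthy libraries.

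**Figure D2:**
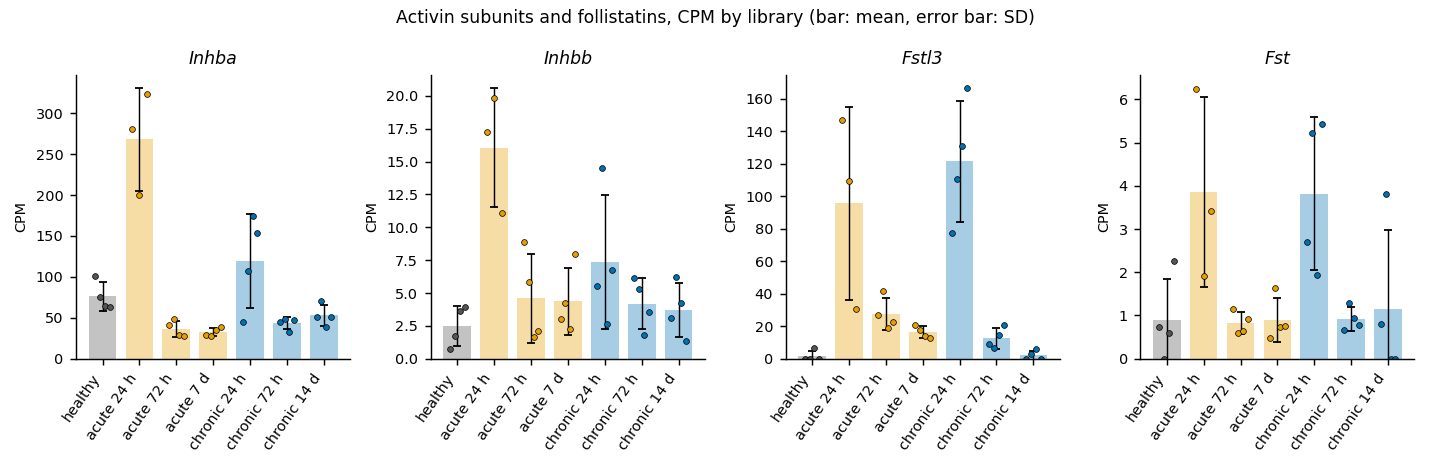
CPM of the activin subunit genes Inhba and Inhbb and of the activin-binding genes Fstl3 and Fst in every library (points) of the 7 groups, with group means (bars) and SD (error bars). The acute 24 h libraries of Inhba, Inhbb and Fstl3 all lie above the healthy ones, and Fstl3 is at 0 in 3 of 4 healthy and 2 of 4 chronic 14 d libraries.

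Fstl3 (ENSMUSG00000020325, chr10:79777272-79782630) encodes a secreted protein that binds and neutralises activins. It had the largest change of the 10 genes 24 h after injury in both courses. Healthy libraries held 0, 0, 77 and 0 counts, or 0, 0, 6.49 and 0 CPM. Acute 24 h libraries stood at 147, 109.5 and 30.6 CPM and chronic 24 h libraries at 77.2, 111, 131 and 166 CPM, all of them above every healthy library. The log2 fold changes were 5.84 ± 1.13 (adjusted p 0.000356) and 6.19 ± 1.13 (adjusted p 0.000207). These folds rest on healthy replicate 3: without it the healthy libraries had no count at all, and against 3 counts per library the level was at least 348-fold higher in acute 24 h and at least 442-fold higher in chronic 24 h. The 24 h groups of the 2 courses did not differ beyond their spread (log2 fold change 0.34, 95% interval -1.52 to 2.20).

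The later groups stood closer to healthy. Acute 72 h libraries stood at 26.6, 41.4, 19.1 and 22.8 CPM (log2 fold change 4.04 ± 1.04 against healthy, adjusted p 0.00712, or at least 99.9-fold without healthy replicate 3). Acute 7 d libraries stood at 20.7, 17.6, 14.1 and 12.7 CPM (3.29 ± 1.02, adjusted p 0.0219, or at least 59.3-fold). Both groups stayed above every healthy library, but both calls were lost with only the groups compared (adjusted p 0.0682 at 72 h and 0.121 at 7 d). The 7 d call was also lost with no filter (adjusted p 0.0589) and without healthy replicate 1 (2.88, adjusted p 0.0577) or 2 (2.89, adjusted p 0.0615). Chronic 72 h libraries stood at 8.80, 6.43, 14.8 and 20.8 CPM and met the healthy range at its upper end. Their log2 fold change of 2.94 ± 1.01 (adjusted p 0.0435, or at least 46.2-fold without healthy replicate 3) was not called without healthy replicate 1, 2 or 4 or without chronic 72 h replicate 1, 3 or 4 (2.53 to 3.08, adjusted p 0.05 to 0.109), nor by DESeq2 (adjusted p 0.0845), with no filter (adjusted p 0.109) or with only the groups compared (adjusted p 0.182). The fall from chronic 24 h to chronic 72 h was 3.24 on the log2 scale (log2 fold change -3.24 ± 0.96, adjusted p 0.0233). The groups did not overlap, yet the call was lost without chronic 24 h replicate 4 or chronic 72 h replicate 1, 2 or 3 (-3.00 to -3.28, adjusted p 0.0523 to 0.0739), by DESeq2 (adjusted p 0.0557), with no filter (adjusted p 0.072) and in the libraries of higher depth alone (adjusted p 0.167). By 14 d the chronic libraries stood at 0, 3.16, 5.77 and 0 CPM, lower than chronic 24 h by a log2 fold change of -5.72 ± 1.11 (adjusted p 0.000699), which became -6.74 without chronic 14 d replicate 3. Against healthy the 14 d change was 0.46 ± 1.06 (adjusted p 0.855). Without healthy replicate 3 it was called higher (adjusted p 0.0188), at least 8.12-fold against 3 counts per library, so this result rests on 1 library. The genes most like Fstl3 in their changes against healthy were Cxcl14 and Thbs1, with root mean square differences of 0.91 and 1.00. In this gene, as in Inhba, Bmp4 and Fst, annotated genes on the other strand overlap and the strand of counting was not stated, though the overlapping genes reached at most 35 counts in any library.

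Fst (ENSMUSG00000021765, chr13:114452290-114458951) encodes follistatin, the classical activin antagonist, and was the scarcest of the 10 genes per kilobase in healthy HSCs (0.194 ± 0.209 CPM per kb, SD, n = 4). Healthy libraries stood at 0.725, 0, 0.590 and 2.25 CPM, acute 24 h libraries at 6.23, 1.91 and 3.42 CPM and chronic 24 h libraries at 2.70, 5.22, 1.93 and 5.44 CPM. Healthy replicate 4 overlapped both injured groups. The log2 fold changes of 2.09 ± 0.93 and 2.08 ± 0.89 were not called (adjusted p 0.0891 and 0.0811). Both were called without healthy replicate 4 (3.08, adjusted p 0.0244, and 3.07, adjusted p 0.022), and the first in the libraries of higher depth alone (2.13, adjusted p 0.0449). In the other 4 groups all but chronic 14 d replicate 2 (3.82 CPM) were at or below 1.64 CPM. Without that library the chronic 14 d mean went from 1.16 to 0.27 CPM, and Fst was then called lower in chronic 14 d than in chronic 24 h (-3.73, adjusted p 0.0117). From 24 h to 72 h Fst was not called in either course (-2.19 and -2.05, adjusted p 0.096 and 0.129), but it was with only the groups compared (adjusted p 0.013 and 0.0158) and, in the acute course, in the libraries of higher depth alone (adjusted p 0.0475).

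Bmp4 (ENSMUSG00000021835, chr14:46383520-46390669), the ligand of the group, was lower than healthy in every injured group. Healthy libraries stood at 201, 208, 207 and 172 CPM. The 11 acute libraries lay between 66.0 and 104 CPM, with 71.4, 87.5 and 70.4 CPM at 24 h, 82.7, 73.3, 93.4 and 104 CPM at 72 h, and 70.3, 66.0, 71.5 and 92.1 CPM at 7 d. No acute library reached the healthy range, and the log2 fold changes were -1.36 ± 0.19 (adjusted p 6.47e-06), -1.15 ± 0.17 (adjusted p 3.21e-05) and -1.39 ± 0.17 (adjusted p 3.27e-06).

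The lowest Bmp4 levels were in chronic 24 h, at 53.5, 34.7, 40.7 and 34.9 CPM, 4.80-fold lower than healthy (log2 fold change -2.26 ± 0.17, adjusted p 2.07e-09). They were also below every acute 24 h library, by a log2 fold change of -0.90 ± 0.18 (adjusted p 0.000835), and so by under 2-fold. The difference passed 2-fold when chronic 24 h replicate 1 was left out (-1.06) and in the libraries of higher depth alone (-1.05). Bmp4 was higher again at 73.6, 64.9, 51.9 and 77.6 CPM at 72 h (0.71 ± 0.17 above chronic 24 h, adjusted p 0.00517, under 2-fold) and at 126, 148, 95.1 and 119 CPM at 14 d (1.58 ± 0.17 above chronic 24 h, adjusted p 8.26e-07). Every chronic 14 d library still lay below every healthy library, but by under 2-fold (-0.69 ± 0.17 on the log2 scale, adjusted p 0.0107). The genes most like Bmp4 in their changes were Kcnk5 and Zfhx4, with root mean square differences of 0.13 and 0.21 over the 6 log2 fold changes.

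Bambi (ENSMUSG00000024232, chr18:3507923-3516404), whose product blocks signalling at the receptor, was among the more abundant of the 10 genes, with 119 ± 7.92 CPM per kb in healthy HSCs (SD, n = 4). It stood at 624, 642, 608 and 549 CPM in healthy, at 325, 362 and 219.7 CPM in acute 24 h and at 402, 285, 249 and 237 CPM in chronic 24 h libraries. Both 24 h groups lay below every healthy library. The log2 fold changes were close to the 2-fold limit, at -1.0 ± 0.25 (adjusted p 0.00304) and -1.05 ± 0.23 (adjusted p 0.0011). The acute call was lost without healthy replicate 1, 2 or 3 or acute 24 h replicate 3 (-0.82 to -1.0, adjusted p 0.0289 or less), with no filter, with only the groups compared, with the replicate block and in the libraries of higher depth alone (-0.93 to -0.999), and the chronic call without chronic 24 h replicate 3 (-0.97) or 4 (-0.95). At 72 h the acute libraries were mixed, at 359.6, 260.4, 564 and 583 CPM. Chronic 72 h libraries stood at 671, 624, 608 and 786 CPM, above every chronic 24 h library by a log2 fold change of 1.20 ± 0.23 (adjusted p 0.000821). Chronic 14 d libraries stood at 729, 654, 493 and 481 CPM, above chronic 24 h by 1.01 ± 0.23 (adjusted p 0.00243), a call that was lost without chronic 24 h replicate 2, 3 or 4 or chronic 14 d replicate 1 or 2 (0.89 to 0.99) and with depth class as a term (0.92).

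Smad6 (ENSMUSG00000036867, chr9:63953076-64022059), which mainly restrains BMP receptors, varied widely between the replicates of some groups. Healthy libraries stood at 179, 257, 308 and 223 CPM and acute 72 h libraries at 645, 522, 466 and 582 CPM, without overlap. The log2 fold change was 1.19 ± 0.41 (adjusted p 0.0399). It was not called when healthy replicate 1, 2 or 4 or any acute 72 h library was left out (1.07 to 1.26, adjusted p 0.0507 to 0.101), with no filter (adjusted p 0.0873) or in the libraries of higher depth alone (adjusted p 0.0764). Acute 24 h libraries stood at 146, 601 and 478 CPM, so that replicate 1 lay below all healthy libraries and the other 2 above them. The log2 fold change of 0.76 ± 0.44 (adjusted p 0.194) was called without replicate 1 (1.16, adjusted p 0.0489). Without the same library Smad6 was lower in chronic 24 h than in acute 24 h (-1.26, adjusted p 0.0494), against -0.86 ± 0.44 with it (adjusted p 0.17). Chronic 72 h libraries ran from 99.8 to 691 CPM (370.5, 289.6, 691 and 99.8), the widest range of Smad6 in any group.

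Smad7 (ENSMUSG00000025880, chr18:75367529-75395935) encodes the inhibitory Smad that acts on both the activin and the BMP branches. It was higher than healthy in 3 comparisons by less than 2-fold. Healthy libraries stood at 119.7, 179, 226 and 124 CPM, acute 24 h libraries at 313, 292 and 294 CPM, and chronic 24 h libraries at 252, 282, 319 and 323 CPM. Both 24 h groups lay above every healthy library, by log2 fold changes of 0.89 ± 0.20 (adjusted p 0.00126) and 0.86 ± 0.19 (adjusted p 0.0011). Without healthy replicate 3 both passed the 2-fold limit (1.09 and 1.06), and the chronic change did so with depth class as a term (1.06). Acute 72 h libraries (268, 281, 229 and 240.2 CPM) were higher by 0.65 ± 0.19 (adjusted p 0.0138). In the chronic course the level had fallen by 0.55 on the log2 scale at 72 h (172, 152, 282 and 196 CPM, adjusted p 0.045 against chronic 24 h) and by 0.63 at 14 d (183, 180.3, 215 and 184 CPM, adjusted p 0.0171).

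Id1 (ENSMUSG00000042745, chr2:152736251-152737410) had the largest difference of the 10 genes between the first and the repeated injury at 24 h. Healthy libraries stood at 58.5, 31.3, 28.8 and 20.8 CPM and acute 24 h libraries at 81.6, 269.7 and 235 CPM. Every acute 24 h library lay above every healthy one, by a log2 fold change of 2.49 ± 0.46 (adjusted p 0.00021). Chronic 24 h libraries stood at 30.9, 35.3, 27.6 and 16.0 CPM, inside or below the healthy range, and lower than acute 24 h by a log2 fold change of -2.83 ± 0.47, or 7.13-fold (adjusted p 0.000127). At 72 h the acute libraries were back at 50.1, 72.3, 25.8 and 36.2 CPM, lower than at 24 h by -2.08 ± 0.46 (adjusted p 0.00167). The chronic 72 h libraries stood at 25.9, 45.9, 22.4 and 37.0 CPM, and the change from 24 h to 72 h differed between the courses by 2.34 ± 0.62 (adjusted p 0.0162). That difference was not called without acute 24 h replicate 2 (2.04, adjusted p 0.0637) or in the libraries of higher depth alone (2.60, adjusted p 0.0538). Acute 7 d and chronic 14 d libraries overlapped healthy, at 23.3 to 51.5 CPM and 15.8 to 60.0 CPM. In the order of its group means the step from acute 72 h to acute 24 h was the only call between neighbours.

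Id3 (ENSMUSG00000007872, chr4:136143497-136145755) was the most abundant of the 10 genes per kilobase, with 509 ± 14 CPM per kb in healthy HSCs (SD, n = 4) against 30.0 ± 14.1 CPM per kb for Id1. Healthy libraries were close together at 914, 945, 896 and 889 CPM, and acute 24 h libraries stood at 1797, 2836 and 2099 CPM, a log2 fold change of 1.30 ± 0.21 (adjusted p 4.85e-05). Acute 72 h libraries (1492, 1994, 1115 and 1325 CPM) also lay above every healthy library, by 0.70 ± 0.20 (adjusted p 0.0125, under 2-fold). Chronic 24 h libraries, at 1171, 1056, 1053 and 864 CPM, overlapped healthy. They were lower than acute 24 h by a log2 fold change of -1.12 ± 0.21 (adjusted p 0.000512), a call lost without acute 24 h replicate 2 (-0.91). Chronic 72 h libraries stood at 1039.6, 1139, 1237 and 1841 CPM and chronic 14 d libraries at 821, 668, 691 and 508 CPM. Every chronic 14 d library lay below every healthy one, but the log2 fold change of -0.44 ± 0.20 did not pass (adjusted p 0.179). The 24 h to 72 h change differed between the courses by 0.94 ± 0.29 (adjusted p 0.0372), under the 2-fold limit, and it passed that limit in 6 of the fits without 1 library, with no filter (1.05) and in the libraries of higher depth alone (1.36, adjusted p 0.0301).

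**Figure D3:**
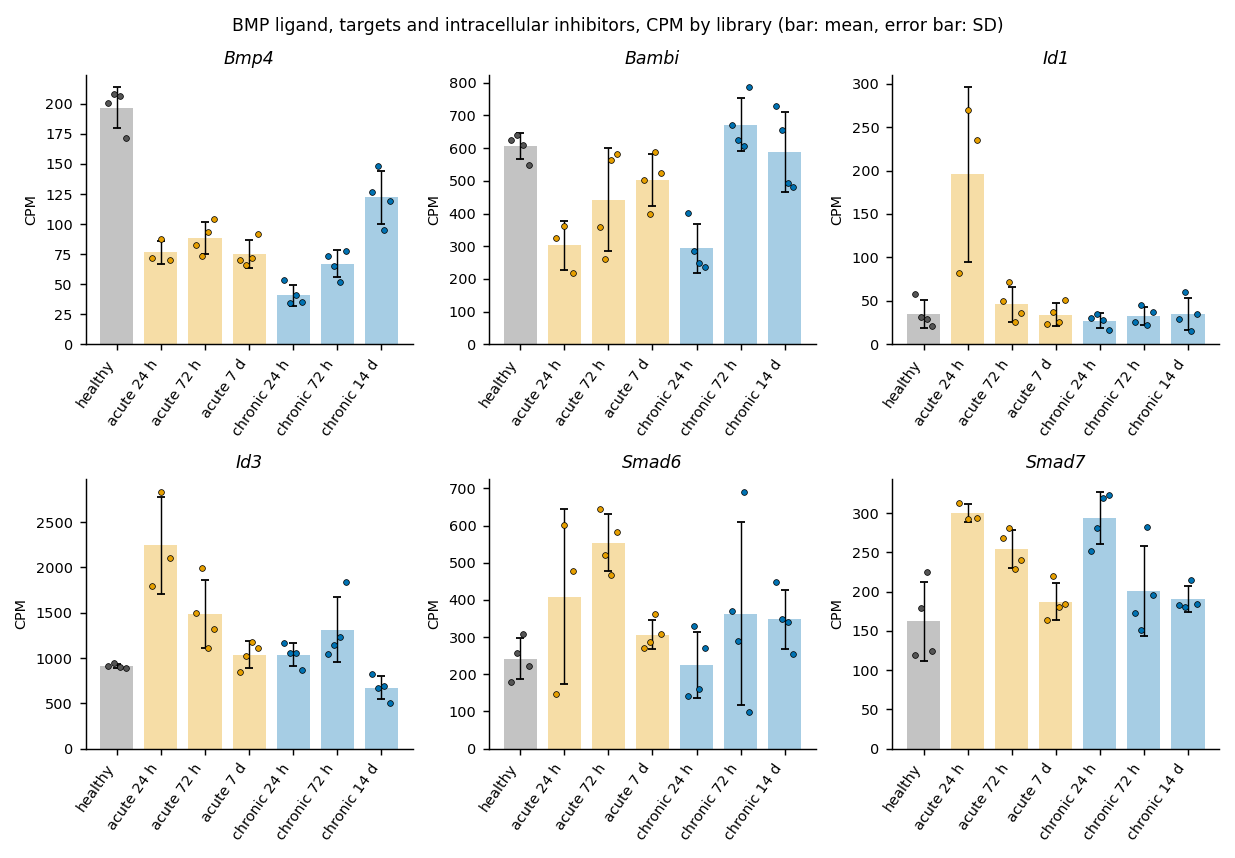
CPM of Bmp4, Bambi, Id1, Id3, Smad6 and Smad7 in every library (points) of the 7 groups, with group means (bars) and SD (error bars). Bmp4 is below the healthy libraries in all 6 injured groups and lowest in chronic 24 h, and the Id1 and Id3 libraries of acute 24 h lie above all healthy and all chronic 24 h libraries.

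The acute and the chronic course are set side by side for their change from 24 h to 72 h. The Inhba change was -2.87 in the acute and -1.47 in the chronic course, the Id1 change -2.08 and 0.26, the Id3 change -0.60 and 0.34, and the Fstl3 change -1.80 (adjusted p 0.188, or 0.0373 with only the groups compared) and -3.24 on the log2 scale. Only for Inhba, Id1 and Id3 did the difference between the courses reach an adjusted p below 0.05. For Fstl3 the difference was -1.44 with a 95% interval from -4.02 to 1.13, and for Bambi it was 0.65 (adjusted p 0.228), so that neither was resolved with these libraries.

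**Figure D4:**
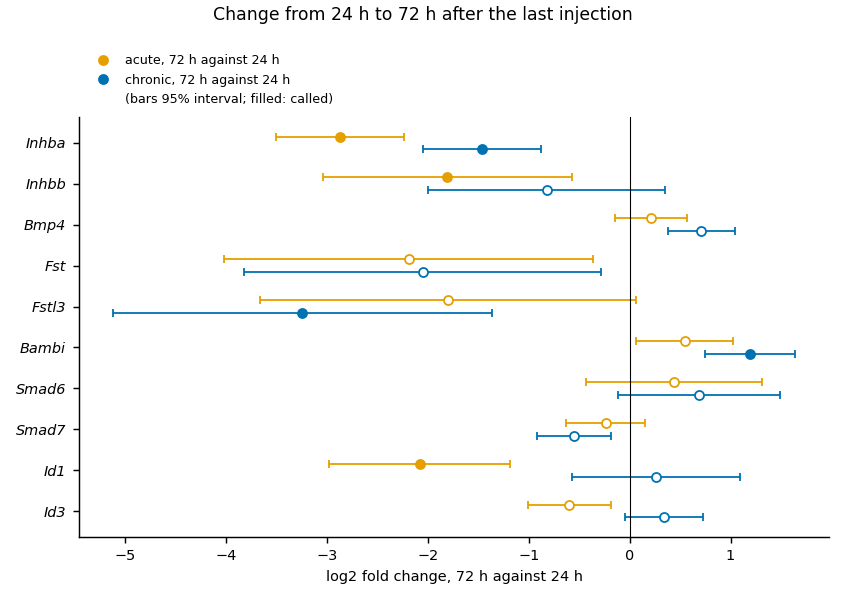
Log2 fold change from 24 h to 72 h of each gene in the acute (orange) and the chronic (blue) course. Bars are 95% intervals, a normal approximation from the SE. Filled points were called. The intervals of Inhba, Id1 and Id3 are apart between the courses, and Inhba falls in both.

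Other genes of activin and BMP signalling were followed as a list of 77 genes in the table, grouped by role, of which 58 passed the filter. In acute 24 h against healthy 17 of the 58 were called, 3 higher and 14 lower, where 22% of all genes tested were called. Their median log2 fold change was -0.25 (-0.21 with genes at 3 counts or fewer set to their bound), against -0.12 over all genes. In chronic 24 h against healthy 15 of the 58 were called, 8 higher and 7 lower, at a background of 19.3%, with a median of -0.05 against -0.03 over all genes. The genes of the antagonists Bmper, whose product binds BMPs, and Nbl1, of the DAN family, had the highest log2 fold changes among those list genes called whose mean log2 CPM was 1 or more. Gdf3, of the same ligand family and below that limit, had 0 counts in all healthy libraries and was at least 12.0-fold higher in chronic 24 h. Its mean was 3.24 CPM in chronic 24 h, 0 CPM in acute 24 h and 3.52 CPM in acute 7 d. The part of other cells in these Gdf3 levels was not tested. Bmper went from 8.68 ± 1.56 CPM in healthy (SD, n = 4) to 215 ± 61.2 CPM in acute 24 h (n = 3) and 145 ± 49.1 CPM in chronic 24 h libraries (n = 4), with log2 fold changes of 4.63 ± 0.26 (adjusted p 3.06e-11) and 4.06 ± 0.25 (adjusted p 6.77e-11). Nbl1 went from 8.57 ± 1.60 CPM to 74.2 ± 18.1 CPM and 102 ± 14.3 CPM, with log2 fold changes of 3.11 ± 0.38 and 3.57 ± 0.38. At chronic 72 h Bmper was back at 9.21 ± 1.00 CPM while Nbl1 stood at 96.6 ± 53.9 CPM. Lefty1, an antagonist of Nodal signalling, was higher in chronic 24 h (1.94 ± 0.46, from 1.56 to 5.96 CPM). Of the 10 secreted antagonist genes of the list that were tested, 2 were called higher and 3 lower in acute 24 h. In chronic 24 h 3 were called higher and 0 lower.

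In acute 24 h 5 of the 12 receptor and co-receptor genes tested were lower and 1 higher, and in chronic 24 h 4 were lower and 2 higher. Acvr2a, a type II receptor of activins, went from 255 ± 82.6 CPM in healthy to 71.5 ± 19.2 CPM in chronic 24 h libraries (log2 fold change -1.83 ± 0.32, adjusted p 0.000104). Its relative Acvr2b went from 7.65 ± 3.42 to 1.30 ± 0.24 CPM (-2.57 ± 0.51, adjusted p 0.000447). Acvr1b, which encodes the type I activin receptor ALK4, went from 2.54 ± 1.27 to 7.51 ± 1.67 CPM in acute 24 h (1.57 ± 0.40, adjusted p 0.00404). Of the 16 ligand genes tested, 0 were called higher and 4 lower in acute 24 h. In chronic 24 h 3 ligand genes were called higher and 3 lower. Among the latter was Bmp5, at 124 ± 20.9 CPM in chronic 24 h against 400.2 ± 65.8 CPM in healthy (-1.69 ± 0.22, adjusted p 4.22e-06). Inhbc (an inhibin beta subunit), Hamp (hepcidin) and Hfe2 (hemojuvelin) were at 0 counts throughout the acute 24 h group, and against 3 counts per library they were at least 18.4-fold, 17.9-fold and 10.9-fold lower than in healthy libraries. These are genes known from hepatocytes, and 9 of 10 hepatocyte markers were lower in the same libraries. Whether the 2 are linked was not tested.

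Among 14 Smad genes and intracellular regulators the comparisons with healthy called 1 gene in all: Smad9, higher in chronic 72 h (2.27 on the log2 scale, from 1.07 to 5.18 CPM). Between 2 and 5 of the 14 had an unadjusted p below 0.05 in a comparison with healthy, and up to 3 had an adjusted p below 0.05, below or above the 2-fold limit. The share of all genes at these limits of p alone is not given, so these counts have no background. Of the 58 list genes, 10 were called in acute 72 h (background 12.6%), 11 in acute 7 d (14.9%), 17 in chronic 72 h (12.1%, with 11 higher and 6 lower) and 4 in chronic 14 d against healthy (5.72%).

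**Figure D5:**
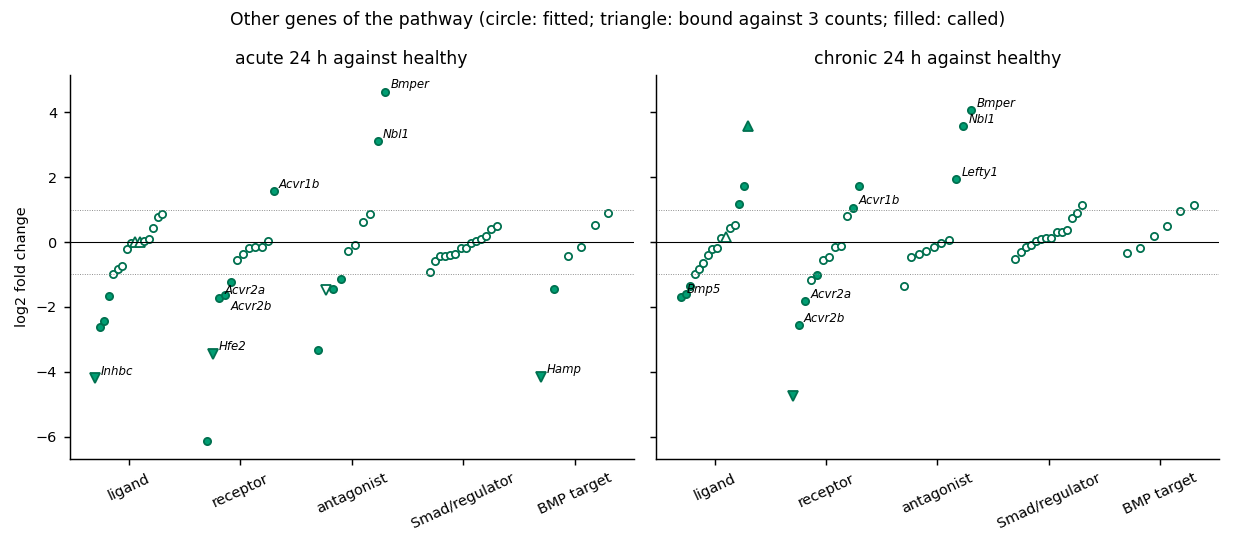
Log2 fold changes against healthy of the 58 other pathway genes tested, by role, in acute 24 h (left) and chronic 24 h (right); circles are fitted values, triangles are bounds or values set against 3 counts per library, and filled symbols were called. Bmper and Nbl1 have the highest fitted values in the acute panel and stand at 4.06 and 3.57 in the chronic one, and no Smad or intracellular regulator is filled.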

How the data were processed

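Bulk RNA of sorted HSCs was sequenced in 27 libraries, and 1 table held all of them. The authors state that single-end reads were trimmed, mapped to GRCm38 with STAR and passed to StringTie. What they deposited is a count per Ensembl gene and library, in whole numbers and without normalization. Versions, strand and the step from assembly to counts are not given in the sources used here. GENCODE M21 gave symbols, positions and exon lengths for 53274 of the 53379 IDs. Promoters came from RefSeq (GRCm38.p6), which matched 6 of the 10 genes.

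The analysis used edgeR 4.0.16 in R 4.3.3, with filterByExpr by group (18758 genes), trimmed mean of M values, and 1 robust quasi-likelihood model with a mean per group, from which 11 comparisons were tested. The SE is the log2 fold change over the square root of F. Genes at 3 counts or fewer in every library of a group got bounds against 3 counts per library. The bounds of Fstl3 are an exception, set after leaving out healthy replicate 3, which held 77 counts. Tests on simulated counts were run first. The 10 genes, the list of 78 pathway symbols (77 found) and the markers were chosen with earlier results of these data known. Of the list, the 3 highest and 3 lowest genes called at 24 h in each course are named (mean log2 CPM of at least 1). Smad9 and Gdf3 were named after their values were seen. The genes most alike were named for members called in at least 3 comparisons with healthy. Lists of mesothelial, cholangiocyte, lymphocyte and neutrophil markers were also measured. In acute 24 h against healthy 1 of 9 tested mesothelial and portal fibroblast markers was higher and 2 lower, the 7 cholangiocyte markers did not pass, and 3 of 9 lymphocyte and neutrophil markers were higher and 2 lower. In chronic 24 h 4, 2 and 4 of these were higher. Between replicates the variance was 16.2 to 82.7 times the counting variance, so no library was counted as a repeat. The alternatives were size factors of DESeq2, library size alone, DESeq2 1.42.0, other filters, a fit of only the groups compared, no fold minimum, a replicate block, depth class as a term, the libraries of higher depth alone, and each library left out. Figures were drawn with matplotlib 3.10.9.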

Additional observations from a re-analysis of the deposited data

Results flagged for a closer look

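In healthy replicate 3 Fstl3 stood at 6.49 CPM and at 0 in the other 3 healthy libraries, and in chronic 14 d replicate 3 Smad7 stood at 215 CPM, with 184 CPM as the nearest of the others. These 2 were the libraries far from the rest of their group among 60 groups of 4 tested, of which chance flags about 1 in 20. The change from 24 h to 72 h differed between the chronic and the acute course by 1.41 on the log2 scale for Inhba (edgeR adjusted p 0.0356) and by 2.34 for Id1 (edgeR adjusted p 0.0162), both tested as an interaction. Inhba was lower at 72 h than at 24 h in both courses, and Id1 was lower in the acute course, where 3 libraries at 24 h and 4 at 72 h were compared.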

How the results depend on the processing

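No called value changed direction under the alternatives run, and the counts that moved by over 1.5 times are given here, while calls of single genes that changed stand beside each gene. Smaller shifts with DESeq2 were 4 instead of 3 members in chronic 24 h against healthy and 2 instead of 3 in chronic 72 h against chronic 24 h. The members called in chronic 72 h against healthy numbered 1 instead of 2 with DESeq2, with no filter and with only the groups compared. The interaction had 1 instead of 2 with only the groups compared and with the libraries of higher depth alone, where the 1 called was Id3. With no fold minimum 1 member was called in chronic 14 d against healthy and 5 in chronic 72 h against chronic 24 h, and with depth class as a term 2 instead of 4 in chronic 14 d against chronic 24 h. Of the pathway list, chronic 14 d against healthy had 4 called, 7 with library size alone, 2 with only the groups compared and 9 with no fold minimum. With no fold minimum the list had 20 in acute 7 d against healthy, 17 in chronic 24 h against acute 24 h and 13 in chronic 72 h against chronic 24 h, and with depth class as a term 7 in chronic 14 d against chronic 24 h. With each library left out in turn, the members called ranged from 2 to 4 in acute 72 h, 2 to 5 in chronic 24 h, 1 to 2 in chronic 72 h and 0 to 1 in chronic 14 d against healthy, from 1 to 3 in the interaction and from 2 to 4 in chronic 14 d against chronic 24 h. The pathway genes called ranged from 2 to 7 in chronic 14 d against healthy and from 4 to 10 in chronic 72 h against chronic 24 h. Counts without a fold minimum exceed the others by construction, and for the remaining changes the cause was not tested. Replicate numbers are shared between groups. The deviations of same-numbered libraries had a median correlation of 0.00886, and 9 of 78 pairs were above 0.1. For libraries of other numbers the median was -0.00211, and 20 of 234 pairs were above 0.1. No pairing by number was thus seen over all groups, and pairing between particular groups was not tested. The fit with the replicate block changed 1 call of the members, Bambi in acute 24 h against healthy (-0.999), and no other call of theirs. With library size alone the median of all genes moved by over 0.1 (log2) in 7 comparisons, from 0.103 to 0.174, which ended the calls of Inhba in acute 72 h against healthy (-0.96) and of Inhbb in acute 72 h against acute 24 h (-1.70). Chronic 14 d has no library of higher depth, so its comparisons could not be fitted in those alone, and depth and group cannot be told apart there. Genes near 0, such as Fst in healthy libraries, are limited by depth. For Fstl3, healthy replicates 1, 2 and 4 held 0 counts at totals of 11.4, 10.8 and 12.4 M. Replicate 3 held 77 counts at 12.6 M, so the zeros were not set apart by depth class. The step from assembly to counts is not stated, and the source of these zeros, on which the Fstl3 bounds rest, was not tested.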
